A study of Mus musculus with 16 samples.

Results

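Hnf4a (ENSMUSG00000017950.16), which encodes a nuclear receptor of hepatocytes, lies on the plus strand of mouse chromosome 2 (GRCm38, 163506808 to 163572910). All listed transcripts whose deposited interval overlaps this gene body by position, with strand not used, were collected: 8 of 51024. One of them, MSTRG.25288.3, was also put in the set by name: the rule that names it rests on measured values, so its FPKM counts as used in choosing it, and its differences are given as a description with no test. The study profiled long non-coding RNA in livers of C57BL/6J mice, 4 libraries in each of 4 groups. One group had ordinary feed and one high fat feed. The other 2 had high fat feed plus a compound by gavage, either the plant polyphenol resveratrol (100 mg/kg daily) or the glucose-lowering drug metformin (200 mg/kg daily). All 16 labels give the same age, postnatal day 21, without saying what that day marks. The labels do not say whether animals of a group were housed or bred apart, so p-values measure only the spread between these libraries.

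HNF4A is a transcription factor that binds DNA as a homodimer and maintains the hepatocyte programme, including genes of lipid transport, clotting, bile acid and glucose metabolism. The gene has an upstream promoter, P2, used in pancreas, gut and fetal liver, and a downstream promoter, P1, which dominates in adult liver. Hnf4aos (ENSMUSG00000046840.16, 163493807 to 163541720) is annotated on the opposite strand: it starts between the promoters and runs back across P2. No coding transcript of Hnf4a is among the listed features, so the level of the coding mRNA was not analysed here. How strand was treated in the deposited FPKM is not stated, so reads of antisense RNA may not be separate from those of the unspliced coding transcript.

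The 8 transcripts fall into 3 sets by position. Those of the antisense gene are Hnf4aos-203 (ENSMUST00000141329, 839 bases), Hnf4aos-202 (ENSMUST00000128896, 635 bases) and Hnf4aos-201 (ENSMUST00000125811, 370 bases). Along the same interval lie the NONCODE transcripts NONMMUT110083.1 (163493808 to 163541721, 12001 bases) and NONMMUT041006.2 (163493835 to 163541601, 842 bases), and at its 5′ part NONMMUT041010.2 (163531709 to 163541711, 2237 bases). NONMMUT110083.1 has nearly the same ends as Hnf4aos-203 but a far greater listed length, and the files do not give its inner exons. MSTRG.25288.3 (163514694 to 163519613) is an assembled transcript of 4885 bases in an interval of 4920 bases. It lies in the first intron of the P2 transcript, touches no annotated exon of Hnf4a or Hnf4aos, and begins 75 bases beyond the small nuclear RNA gene Gm25881. NONMMUT110086.1 (163564164 to 163566230, 235 bases) begins and ends within coding exons 7 and 8 of Hnf4a. Its interval holds 256 bases of those exons, so reads of the coding mRNA cannot be told apart from its own.

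**Figure D1:**
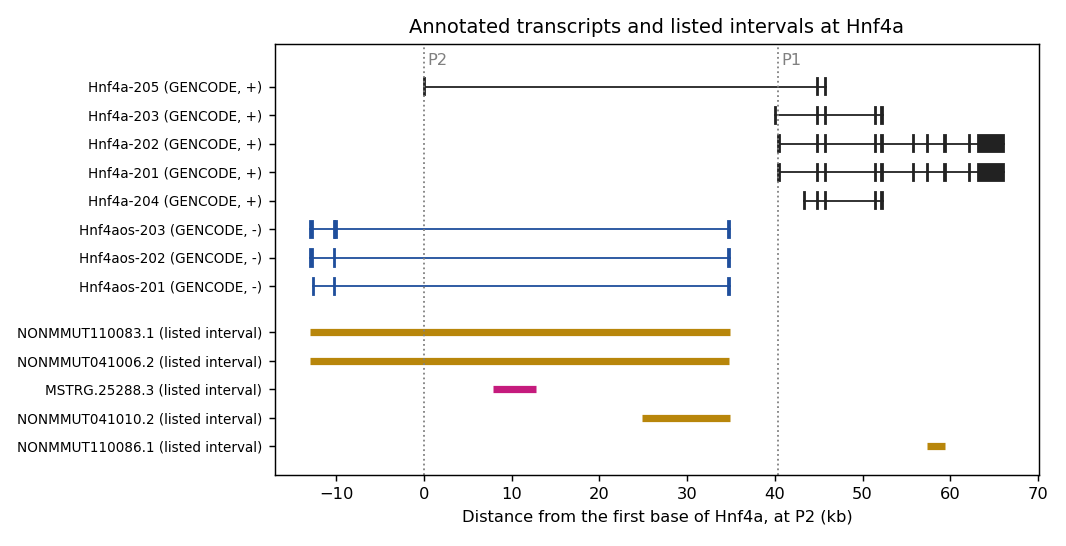
Map of the locus, in kb from the first base of Hnf4a at P2. Black and blue are annotated transcripts of Hnf4a (plus strand) and Hnf4aos (minus strand), with exons as boxes; the gold and magenta bars are the whole listed intervals of the other 5 transcripts, whose inner exons are not given. MSTRG.25288.3, in magenta, lies between P2 and P1 and inside the interval of NONMMUT110083.1.

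The 3 start regions of the locus are shown because the listed transcripts lie between them. P1 starts 40.4 kb downstream of P2, and the antisense start lies 5.47 kb upstream of P1. Those distances use GENCODE M21 starts. Each window of the RefSeq table (GRCm38.p6) runs from 250 bases before to 50 bases after the RefSeq start, which can differ from the GENCODE one, 5′ to 3′ on the gene's own strand. Capitals would mark matches to either of 2 motifs, and none was found.
Hnf4a P2, chr2:163506607-163506906, plus strand: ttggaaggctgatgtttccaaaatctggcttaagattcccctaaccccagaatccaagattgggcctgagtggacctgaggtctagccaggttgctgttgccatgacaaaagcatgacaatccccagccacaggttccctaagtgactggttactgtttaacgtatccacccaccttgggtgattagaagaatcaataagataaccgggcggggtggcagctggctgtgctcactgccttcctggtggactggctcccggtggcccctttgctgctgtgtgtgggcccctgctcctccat
Hnf4aos, chr2:163541672-163541971, minus strand: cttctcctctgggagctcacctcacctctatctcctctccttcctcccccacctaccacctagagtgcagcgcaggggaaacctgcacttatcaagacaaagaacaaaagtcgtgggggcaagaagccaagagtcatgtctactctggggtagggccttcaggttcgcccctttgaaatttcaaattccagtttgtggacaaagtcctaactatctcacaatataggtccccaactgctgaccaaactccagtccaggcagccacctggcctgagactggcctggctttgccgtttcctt
Hnf4a P1, chr2:163546905-163547204, plus strand: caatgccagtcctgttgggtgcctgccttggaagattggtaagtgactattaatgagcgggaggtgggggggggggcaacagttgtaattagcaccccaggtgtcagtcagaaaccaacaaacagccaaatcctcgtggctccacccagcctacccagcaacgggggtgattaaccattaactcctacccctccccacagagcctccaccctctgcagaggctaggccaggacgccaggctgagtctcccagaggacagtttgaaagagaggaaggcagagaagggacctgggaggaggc

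The motifs, searched as exact letters on both strands, were CAAAGTCCA for HNF4 and TGTTTAC for FOXA factors. Neither set of letters was in the 3 windows. Of 32851 promoter windows of the same length in the table, 0.475% held the HNF4 letters and 3.65% the FOXA letters.

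Hnf4aos-203 and Hnf4aos-202 differ by exon 2 of Hnf4aos-203, of 204 bases, and share all their other exons. The exon is shown because it is all that separates the form listed above 0 in every library from one that was not (GENCODE M21).
Hnf4aos exon 2, chr2:163496735-163496938, minus strand: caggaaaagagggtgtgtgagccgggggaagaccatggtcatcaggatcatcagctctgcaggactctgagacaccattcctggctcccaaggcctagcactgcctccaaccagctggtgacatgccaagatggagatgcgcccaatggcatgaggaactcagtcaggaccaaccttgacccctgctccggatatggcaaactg

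Values are FPKM, reads scaled to transcript length and library size. Libraries held about 17249327 to 31113740 reads, as recovered from the values, of which 15.7% to 23.6% fell on listed transcripts. The median library had 3287 reads on NONMMUT110083.1, 611 on MSTRG.25288.3, 83 on Hnf4aos-203 and 8.5 on NONMMUT110086.1. Medians were lower still for Hnf4aos-202 (7), Hnf4aos-201 (2.5) and NONMMUT041006.2 (2.5), so counting error is largest for the last 2. FPKM was used as deposited. The median ratio of a library's features to their geometric mean over libraries set the fourth high fat library apart at 0.691, against 0.885 to 1.145 in the other 15, and all features together had a median change of -0.16 between high fat and ordinary feed. Each change below is on the scale of log2(FPKM + 1), with its standard error (SE), from a limma fit of all 16 libraries and 7413 features. A feature was called at a Benjamini-Hochberg adjusted p under 0.05. The 3 Ensembl transcripts were summed as Hnf4aos. Of the resulting 6 features, 5 reached 1 FPKM in at least 4 libraries and entered the fit, MSTRG.25288.3 among them; NONMMUT041010.2 did not.

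NONMMUT110083.1, the long antisense-interval transcript, was the most abundant member and was higher on high fat feed. It measured 2.78, 5.11, 5.49 and 10.96 FPKM in the 4 ordinary-feed livers. On high fat feed it measured 14.96, 11.80, 11.72 and 14.67 FPKM. Every high fat liver was above every ordinary-feed liver, though the fourth ordinary-feed liver, at 10.96, came close. The mean rose from 6.09 ± 3.46 to 13.3 ± 1.77 FPKM (SD, n = 4 each), a log2 change of 1.13 (SE 0.29, limma adjusted p = 0.0231). It was the 1 call among the 4 tested features other than MSTRG.25288.3, in a comparison where 14.6% of all features were called and 2.83% of all features were called as higher. Values of both groups lay apart in this direction for 3.64% of all features. The interval of NONMMUT110083.1 holds that of MSTRG.25288.3, which was chosen by its values, and reads there may count toward either. The p-values of NONMMUT110083.1, and of sums and ratios that include it, are therefore not independent of that choice. Leaving out liver 1, 2 or 3 on ordinary feed, or liver 4 on high fat feed, took the limma adjusted p above the threshold (0.0516 to 0.0575), as did fitting with no filter on low values (0.103) or with only these 2 groups (0.0651). The change kept its direction in each of these, from 0.86 to 1.13. In bulk liver, a change in the share of a cell type and a change of RNA per cell cannot be told apart.

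With resveratrol, NONMMUT110083.1 measured 7.59, 7.79, 12.20 and 13.89 FPKM, and with metformin 13.54, 19.92, 13.35 and 12.58. The 4 metformin livers lay above all 4 ordinary-feed livers, while the resveratrol livers overlapped both feeds. Resveratrol libraries 1 and 2, the low ones, share a title prefix that libraries 3 and 4 do not carry. In the ordinary-feed group the fourth library, the highest, likewise has another prefix than the first 3, and the 4 high fat titles share 1 prefix of their own. What the prefix means is not stated in the labels, its part in these values was not tested, and between the high fat group and the others it cannot be told apart from the diet. Against high fat alone the change was -0.36 with resveratrol (SE 0.29, limma adjusted p = 0.534) and 0.14 with metformin (SE 0.29, 0.922). Their 95% intervals ran from -0.99 to 0.26 and from -0.49 to 0.76. Against ordinary feed the change was 0.76 with resveratrol (SE 0.29, limma adjusted p = 0.272) and 1.26 with metformin (SE 0.29, 0.0640), neither of which passed. The metformin difference did pass with median-ratio scaling (1.40, adjusted p = 0.0451) and with quantile normalization (1.39, 0.0415), as well as without ordinary-feed library 4, high fat library 4 or resveratrol library 4 (0.0236 to 0.0437). These comparisons share the ordinary-feed or the high fat libraries.

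**Figure D2:**
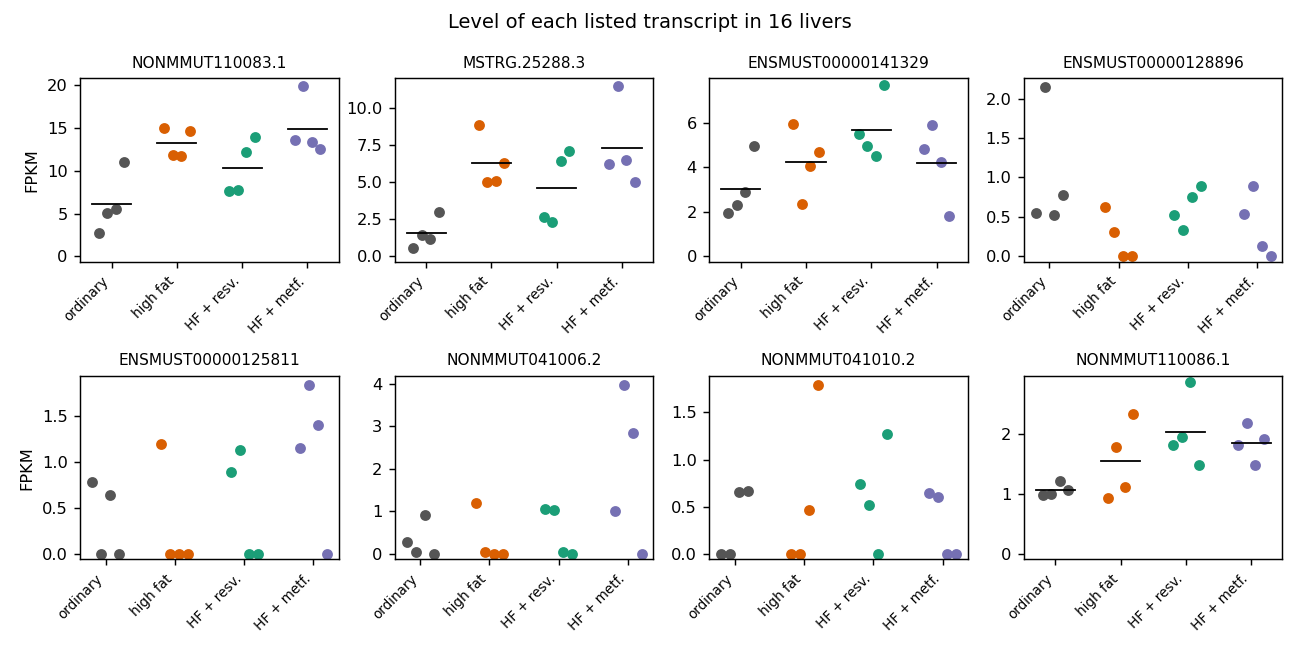
FPKM of the 8 listed transcripts at the Hnf4a locus, 1 point per liver in 4 groups (HF is high fat feed, resv. resveratrol, metf. metformin). Black bars are group means of 4 and are left out where a transcript is listed at 0 in any library. NONMMUT110083.1 spans 2.78 to 10.96 FPKM on ordinary feed and 11.72 to 14.96 on high fat feed.

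MSTRG.25288.3, inside the interval of NONMMUT110083.1, varied alongside it. It measured 0.593, 1.41, 1.18 and 3.01 FPKM on ordinary feed. On high fat feed it measured 8.85, 5.03, 5.08 and 6.29 FPKM. The groups lay apart, and the ratio of their means was 4.08. With resveratrol it measured 2.68, 2.31, 6.44 and 7.10 FPKM. With metformin it measured 6.20, 11.44, 6.52 and 5.02 FPKM. As for NONMMUT110083.1, the low resveratrol livers were the first and second, and the highest of all 16 was the second metformin liver. Mean levels (± SD, n = 4 each) were 1.55 ± 1.03 on ordinary feed and 6.31 ± 1.79 on high fat feed, and with the compounds 4.63 ± 2.49 for resveratrol and 7.29 ± 2.84 for metformin. The metformin mean was thus 4.71 times, and the resveratrol mean 2.99 times, that of ordinary feed, and the resveratrol values overlapped those of ordinary feed. Across the 16 libraries the levels of these overlapping transcripts, as log2(FPKM + 1), had a Pearson r of 0.970 and a Spearman rho of 0.935. Both are given as a description: the points share library and depth, and reads in the shared interval may count toward either transcript.

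**Figure D3:**
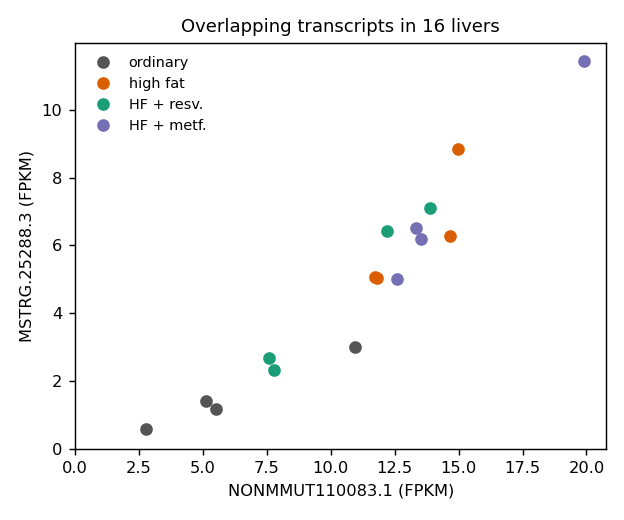
FPKM of NONMMUT110083.1 (horizontal axis) against MSTRG.25288.3 (vertical axis), 1 point per liver, coloured by group. The 4 ordinary-feed livers and resveratrol livers 1 and 2 lie at the lower left, up to 10.96 and 3.01 FPKM, and metformin liver 2 lies at the upper right at 19.92 and 11.44 FPKM.

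Both transcripts did not move by the same factor. MSTRG.25288.3 was 0.213 to 0.276 of the FPKM of NONMMUT110083.1 in the 4 ordinary-feed livers. The ratio was 0.426 to 0.592 on high fat feed, 0.297 to 0.528 with resveratrol and 0.399 to 0.574 with metformin. Every liver on high fat feed, with or without a compound, was above every ordinary-feed liver. This ratio was looked at after the values were known and includes the transcript chosen by its values, so it has no test.

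The annotated, spliced antisense RNA gave other values. Hnf4aos, summed over its 3 transcripts, measured 3.27, 4.47, 4.06 and 5.75 FPKM on ordinary feed and 7.76, 2.64, 4.07 and 4.67 FPKM on high fat feed. The groups overlapped throughout, and the change was 0.05 (SE 0.33, limma adjusted p = 0.932), with a 95% interval from -0.66 to 0.76. It measured 6.94, 6.43, 5.28 and 8.60 FPKM with resveratrol and 6.50, 8.62, 5.78 and 1.82 FPKM with metformin. Group means (± SD, n = 4 each) were 4.39 ± 1.04 for ordinary feed, 4.78 ± 2.16 for high fat, 6.81 ± 1.38 for resveratrol and 5.68 ± 2.84 for metformin. In order from ordinary feed to high fat, metformin and resveratrol, neighbours differed by less than their spread. The means at the ends of that order, ordinary feed and resveratrol, lay further apart than either SD. Single values of those groups overlapped (change 0.54, SE 0.33, limma adjusted p = 0.52). Hnf4aos passed in none of the 6 comparisons, and its lowest adjusted p was 0.468, for resveratrol against high fat (0.49, SE 0.33).

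The long transcript was compared with the summed Hnf4aos within each library, a comparison added after the values were seen. The interval of NONMMUT110083.1 holds 953 bases of Hnf4aos exons, and reads there may count toward either. How such reads were assigned is not stated, and its part in the ratio was not tested. NONMMUT110083.1 had 0.852, 1.14, 1.35 and 1.91 times the FPKM of Hnf4aos on ordinary feed. On high fat feed it had 1.93, 4.47, 2.88 and 3.14 times. The high fat values lay just above, 1.93 against 1.91 at the nearest, and the mean difference of log2 ratios was 1.24 (two-sided exact permutation p = 0.0286, the smallest that 4 against 4 allows, and 0.0857 after adjustment over 6 comparisons). With metformin the ratios were 2.08, 2.31, 2.31 and 6.90, again all above ordinary feed (1.23, exact permutation p = 0.0286, adjusted 0.0857). With resveratrol they were 1.09, 1.21, 2.31 and 1.62, below high fat alone by a mean log2 of -0.99 with overlap (exact permutation p = 0.0571, adjusted 0.114). Leaving out 1 library at a time left the first difference between 1.04 and 1.45, the second between 0.83 and 1.43 and the third between -1.20 and -0.80. No adjusted value passed.

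**Figure D4:**
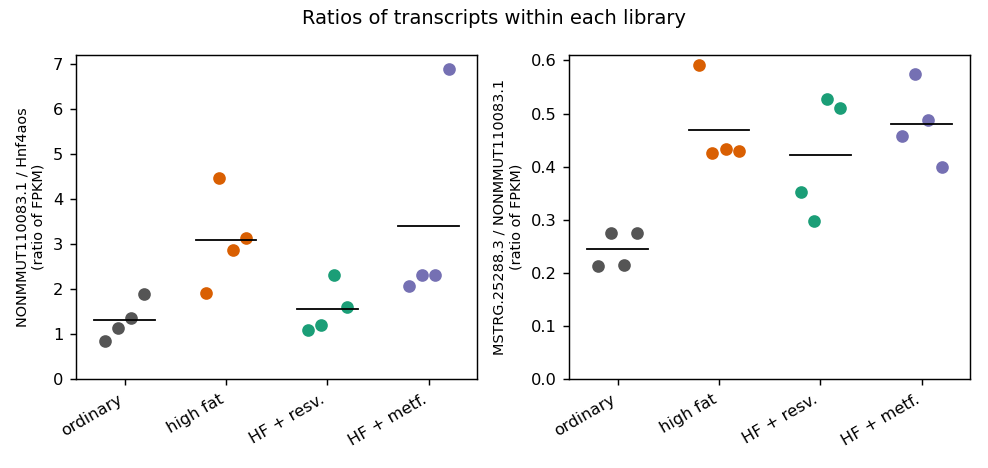
Ratio of FPKM within each liver, 1 point per liver, with the group mean as a bar. Left, NONMMUT110083.1 over Hnf4aos, at 0.852 to 1.91 on ordinary feed and 1.93 to 4.47 on high fat feed; right, MSTRG.25288.3 over NONMMUT110083.1, at 0.213 to 0.276 and 0.426 to 0.592.

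Within Hnf4aos, the form with exon 2 carried most of the level. Hnf4aos-203 measured 1.93, 2.32, 2.89 and 4.97 FPKM on ordinary feed, 5.94, 2.34, 4.07 and 4.67 on high fat, 5.52, 4.97, 4.52 and 7.70 with resveratrol, and 4.81, 5.88, 4.24 and 1.82 with metformin. It exceeded Hnf4aos-202, which lacks the exon shown above, in all 16 libraries, by 1.08 to 31.0 times in the 13 where the shorter form was above 0. Hnf4aos-202 measured 0.548, 2.15, 0.525 and 0.782 FPKM on ordinary feed and 0.625, 0.304, 0 and 0 on high fat feed. It measured 0.521, 0.329, 0.756 and 0.894 FPKM with resveratrol and 0.536, 0.894, 0.137 and 0 with metformin. At most 35 reads lay behind any of these, and isoforms that share exons make the split between them uncertain.

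Hnf4aos-201 and NONMMUT041006.2 had more than 1 read in the same livers. Both had more than 1 read in 8 libraries and both had 0 or 1 read in the other 8. The match is a description: their intervals nearly coincide, reads may count toward either, and the median was 2.5 reads each. The part of shared or few reads in it was not tested. The libraries with more than 1 read were ordinary-feed 1 and 3, high fat 1, resveratrol 1 and 2, and metformin 1, 2 and 3. Hnf4aos-201 measured 0.644 to 1.84 FPKM there, from at most 12 reads, and was listed at 0 elsewhere. NONMMUT041006.2 measured 0.275, 0.0463, 0.905 and 0 FPKM on ordinary feed, and 1.21, 0.0382, 0 and 0 on high fat feed. It measured 1.07, 1.04, 0.0571 and 0 FPKM with resveratrol, and 1.01, 3.98, 2.83 and 0 with metformin. All 4 groups held livers with and without it. It reached 1 FPKM in 6 libraries, 3 of them metformin and none ordinary feed, and entered the fit only with the metformin libraries, so its metformin changes of 1.02 against high fat and 0.98 against ordinary feed (SE 0.45 each) are a description. Neither was called. NONMMUT041010.2 was listed at 0 in 7 libraries and reached 1 FPKM in 2, high fat library 4 (1.79) and resveratrol library 4 (1.27). It was not tested, and the other 7 libraries with reads had 0.469 to 0.739 FPKM.

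NONMMUT110086.1, the transcript on coding exons 7 and 8, was low throughout. It measured 0.987, 0.995, 1.22 and 1.06 FPKM on ordinary feed, and 0.939, 1.78, 1.12 and 2.33 on high fat feed. It measured 1.81, 1.95, 2.86 and 1.49 FPKM with resveratrol, and 1.81, 2.17, 1.48 and 1.91 with metformin. Every liver given a compound was above every ordinary-feed liver, and the high fat livers overlapped all groups. The changes against ordinary feed were 0.54 with resveratrol (SE 0.16, unadjusted p = 0.00519, limma adjusted p = 0.181) and 0.46 with metformin (SE 0.16, unadjusted p = 0.0135, adjusted p = 0.148), and neither passed. High fat against ordinary feed gave 0.27 (SE 0.16, limma adjusted p = 0.267). Between 4 and 14 reads per library lay behind these values.

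In the 5 other comparisons none of the 4 tested features was called by limma. Features called were 0.0809% of all for resveratrol against high fat, 0.027% for metformin against high fat, 0% for resveratrol against metformin, 0.283% for resveratrol against ordinary feed and 0.297% for metformin against ordinary feed. At an unadjusted p under 0.05 the counts of the 4 were 0, 1, 0, 2 and 3 in that order, where 16.2%, 7.47%, 6.35%, 13.2% and 20.1% of all features lay. NONMMUT041006.2 is the 1 for metformin against high fat and is among the 3 for metformin against ordinary feed. Groups lay apart for 1 of the 4 between resveratrol and ordinary feed, where 4.41% of all features lay apart upward, and for 2 of the 4 between metformin and ordinary feed, where 2.9% did. Between the compounds, resveratrol against metformin, the change was 0.34 for Hnf4aos (SE 0.33, limma adjusted p = 0.854). For NONMMUT110083.1 it was -0.50 (SE 0.29, limma adjusted p = 0.792), with a 95% interval from -1.12 to 0.12.

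**Figure D5:**
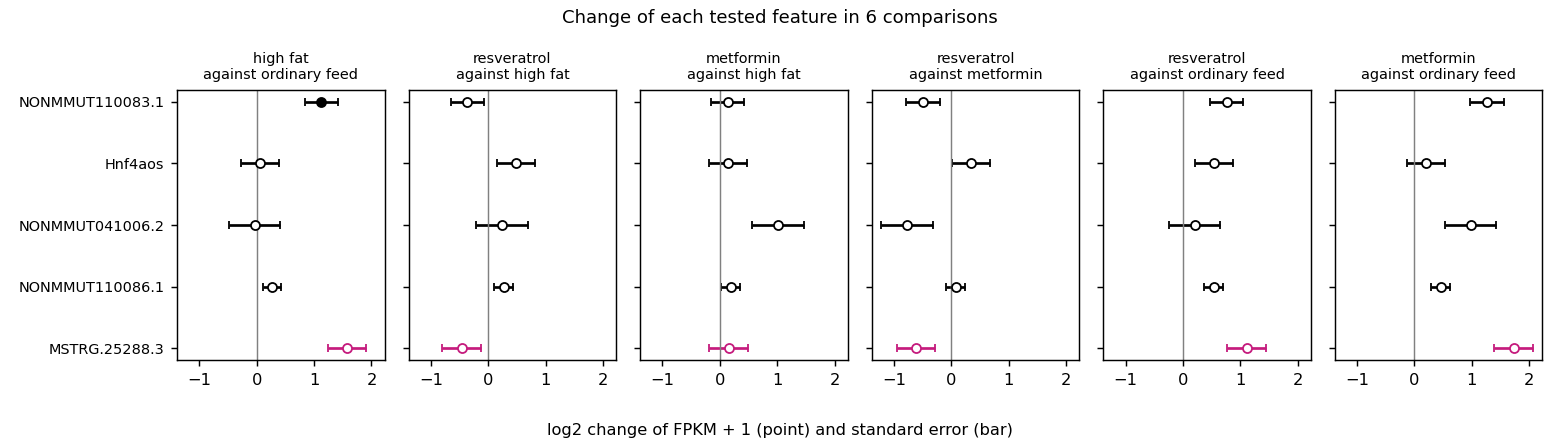
Log2 change of FPKM + 1 with its standard error for 5 features in 6 comparisons. The filled point, NONMMUT110083.1 in high fat against ordinary feed at 1.13, is the 1 called difference; open black points were not called, and magenta points (MSTRG.25288.3) carry no test.

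Summed over all members except MSTRG.25288.3, the locus measured 7.31 to 18.4 FPKM on ordinary feed, 16.3 to 24.9 on high fat, 17.7 to 25.2 with resveratrol and 16.3 to 35.3 with metformin. The fourth ordinary-feed liver, at 18.4, overlapped every other group. The differences against ordinary feed were 0.75 for high fat (two-sided exact permutation p = 0.0857), 0.75 for resveratrol (0.0857) and 0.98 for metformin (0.0571), each 0.171 after adjustment over 6 comparisons. NONMMUT110083.1 made up 38.1% to 77.1% of the sum. With whole reads scaled to library size in place of summed FPKM, most of the weight lies on the 12001-base transcript. It had a median of 3286.5 reads, against 83 for the next, Hnf4aos-203. This setting is therefore close to a second test of NONMMUT110083.1, with the same dependence on MSTRG.25288.3. The differences were then 1.23 for high fat and 1.37 for metformin, each with the smallest possible exact p, 0.0286. For resveratrol the difference was 0.87 (exact p = 0.0857). With only the members wholly inside the gene, NONMMUT041010.2 and NONMMUT110086.1, the differences were 0.30 for high fat (exact p = 0.6), 0.40 for metformin (0.114) and 0.63 for resveratrol (0.0286). The exact p-values of these other settings were not adjusted over comparisons.

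Around the gene, 17 further features lay within 100 kb, of which 7 were tested. NONMMUT041008.2, 9.49 kb before P2 in R3hdml, with an interval that covers exons 2 and 3 of Hnf4aos-203, measured 0.180, 0.182, 0.111 and 0.155 FPKM on ordinary feed. It measured 0.306 to 1.10 FPKM on high fat feed, 0.405 to 2.14 with resveratrol and 0.490 to 2.16 with metformin. It was picked out after its values were seen and reached 1 FPKM in exactly 4 libraries, none on ordinary feed, so it entered the fit only through the groups where it is higher. Its values are given as a description. The 1 call among the 7, where 14.6% of all features were called, was NONMMUT041017.2, 93.0 kb beyond the gene in Pkig, an inhibitor of protein kinase A, with 1.28 ± 0.0648 FPKM on ordinary feed and 0.824 ± 0.143 on high fat feed (SD, n = 4 each). Its log2 change was -0.32 (SE 0.09). Its means with resveratrol and metformin were 0.852 and 0.869 FPKM, so only the ordinary-feed mean reached the 1 FPKM of the filter. It entered the fit mainly through the group where it is high, and this call is a description. None of the 7 was called by limma in the 5 other comparisons. At an unadjusted p under 0.05 there were 1, 0, 0, 2 and 3 of the 7, in the order used above, beside 16.2%, 7.47%, 6.35%, 13.2% and 20.1% of all features. The 2 are NONMMUT041008.2 and NONMMUT041017.2, which are also among the 3, so those counts carry the same limit.

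Other liver transcription factors, partners of HNF4A in the hepatocyte network, were followed through features inside or near their genes. Of 27 such genes 11 had a tested feature, and none was called in any of the 6 comparisons by limma. At an unadjusted p under 0.05 there were 2 of the 11 between high fat and ordinary feed, where 32.2% of all features lay, and 0, 2, 0, 2 and 2 in the others, beside 16.2%, 7.47%, 6.35%, 13.2% and 20.1%. Their median change there was 0.11, beside -0.16 for all features. The feature at Foxa2, a pioneer factor of liver, had 17.0 ± 1.54 FPKM on ordinary feed and 28.6 ± 3.43 on high fat feed (0.71, SE 0.25, adjusted p = 0.0695). That at Prox1, a homeobox factor of hepatocytes, did not pass either (-0.27, SE 0.19, adjusted p = 0.328).

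Among 34 textbook target genes of HNF4A, 11 had a tested feature, 10 distinct ones since Apoa1 and Apoc3 share theirs. On high fat feed 1 was higher and 2 were lower than on ordinary feed, 7 were not called, and the median change was -0.27 beside -0.16 for all features. Of all features 14.6% were called there, and 2.83% were called as higher. The feature at Serpinc1, the antithrombin gene, was at 7.33 ± 0.894 FPKM on ordinary feed and rose to 11.5 ± 1.26 (log2 change 0.59, SE 0.18, limma adjusted p = 0.0421). That at Cps1, the first enzyme of the urea cycle, was at 2.35 ± 1.63 FPKM on ordinary feed and 0.162 ± 0.0317 on high fat feed (log2 change -1.36, SE 0.30). That beside Pck1, of glucose synthesis, was also lower (-1.30, SE 0.14), at 0.662 ± 0.170 FPKM on high fat feed. With metformin it was again lower than ordinary feed (-0.86, SE 0.14, limma adjusted p = 0.0191), where 0.297% of all features were called. The Cps1 and Pck1 features lay below 1 FPKM on high fat feed and entered the fit through groups where they are higher. Their high fat differences, the 2 called as lower, are therefore a description, and they are also in the unadjusted counts below. No other target feature was called in any comparison by limma. At an unadjusted p under 0.05 there were 4 of the 10 between high fat and ordinary feed, where 32.2% of all features lay, and 3, 5, 1, 2 and 1 in the others, beside 16.2%, 7.47%, 6.35%, 13.2% and 20.1%. The 5, for metformin against high fat, hold the features at Cps1, Pck1 and Cyp7a1, higher with metformin, and at Apoa4 and Serpinc1, lower. That at Cyp7a1 was also below 1 FPKM on high fat feed (0.667, against 2.40 with metformin). Those counts therefore carry the same limit of the filter and are a description. A position near a target gene does not give that gene's mRNA level.

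Cell types of these bulk livers could be followed only in part. Among 5 hepatocyte markers, 3 had a tested feature (Apoa1, Cps1 and Hnf4a, the last being NONMMUT110083.1 itself), and such features do not give the markers' mRNA, so the tissue label was not checked by marker levels. Among 19 markers of cholangiocytes, Kupffer, endothelial and stellate cells, 17 had none, and the features at Csf1r and Reln ranged from 0.0647 to 3.89 and from 0.336 to 1.93 FPKM over all groups. In the high fat livers the Csf1r feature was at most 0.125 FPKM. Its lowest values elsewhere were similar, at 0.111 on ordinary feed, 0.124 with resveratrol and 0.121 with metformin. On ordinary feed it was 0.930 ± 1.59 FPKM (SD, n = 4). Its difference between high fat and ordinary feed was not called (-0.53, SE 0.56, limma adjusted p = 0.537). The part of cell makeup in the results was not tested.

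The features whose pattern over the 16 libraries was most like that of NONMMUT110083.1, outside 100 kb, were found by Pearson r of log2(FPKM + 1). They lay at Actn1, an actin crosslinker (NONMMUT014814.2, r = 0.875), Slc46a3, a lysosomal transporter (NONMMUT055336.2, 0.862), Cep85 (NONMMUT049977.2, 0.854), Usp2 and Gm49380 (NONMMUT068821.2, 0.847) and Stard4, a cholesterol carrier (NONMMUT031869.2, 0.844). Those of Actn1, Stard4 and Slc46a3 were also among the 5 most like MSTRG.25288.3 (0.901, 0.868 and 0.859), with a pair at Tns1 (0.870 and 0.864). All are described, with no test, as the highest of 7413 values from libraries that share diet and depth.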

How the data were processed

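RNA of 16 mouse livers was sequenced by the submitters, and the authors deposited 1 FPKM value for each of 51024 transcripts per library. The submitters' processing notes name Bowtie 0.12.2, Cufflinks 2.1.1 and GRCm38, without the role of each. Which annotation the authors used, how strand was treated and which transcripts were kept are not stated in the labels. All else was computed here. Multiplied by listed length, at least 99.988% of values in each library were whole numbers of reads, within 0.05 of a read, which gave reads and library totals. FPKM was summed over the transcripts of each Ensembl gene (6306 of 6326 matched GENCODE M21). Features with at least 1 FPKM in at least 4 libraries (7413 of 49988) entered 1 fit of all 4 groups on log2(FPKM + 1), made with limma 3.58.1 (R 4.3.3) and its variance trend. Benjamini-Hochberg adjustment ran over all 7413. Single values were compared by exact permutation tests, two-sided. The fit was tested on data drawn with known changes. Replicates were numbered in accession order.

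Members were taken by position against the GENCODE M21 gene body. Named were the members with 1 FPKM or more in any library, called neighbours within 100 kb, called list features, and the 5 features most like NONMMUT110083.1 and MSTRG.25288.3. NONMMUT041008.2 and the uncalled transcription factor and target features were picked out after their values were seen. A feature stood for a list gene when at least 50% of it lay in the gene, or when it was intergenic within 5 kb, taking the highest mean. The members and lists were chosen with earlier results of these data known. Other pseudocounts, filters, scalings, transcripts without summing, 2 groups alone and leaving out each library were tried as alternatives. One result on a listed transcription factor and one motif are not reported here.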

Additional observations from a re-analysis of the deposited data

Results flagged for a closer look

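Groups of 4 livers were screened for a highest or lowest value far from the rest, by a test that flags about 1 group in 20 by chance. Of 52 groups of values 6 stood out, each by its highest library. The chance rate does not hold for groups mostly at 0, such as Hnf4aos-201 on high fat feed. The groups also overlap, since ratios reuse the same transcripts. NONMMUT110083.1 was 19.92 FPKM in metformin library 2, against 13.54 in the next. The ratio of NONMMUT110083.1 to Hnf4aos was 6.90 in metformin library 4, against 2.31 in the next, where Hnf4aos itself was lowest at 1.82 FPKM. The ratio of MSTRG.25288.3 to NONMMUT110083.1 was 0.592 in high fat library 1, against 0.433 in the next. That library was also the single high fat one with Hnf4aos-201 (1.19 FPKM, with 0 in the others) and with more than 1 read of NONMMUT041006.2 (1.21 FPKM, against 0.0382). Hnf4aos-202 was 2.15 FPKM in ordinary-feed library 2, against 0.782 in the next.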

How the results depend on the processing

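The count of called members for high fat against ordinary feed, 1, became 0 with no filter and with 2 groups alone, and ranged from 0 to 1 when 1 library was left out. For metformin against ordinary feed the count of 0 became 1 with median-ratio scaling, with or without high fat library 4, and with quantile normalization, and ranged from 0 to 1 without 1 library. The other 4 comparisons had 0 calls in each setting run. No paired analysis was made, since the labels name no pairs of livers across groups.

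Some settings took the summed locus to an exact p of 0.0286, the smallest possible, which was not adjusted over comparisons. For high fat against ordinary feed these were median-ratio scaling (1.02) and reads scaled to library size (1.23). For metformin they were the same (1.13 and 1.37). For resveratrol they were median-ratio scaling (0.80) and members wholly inside the gene (0.63). With members wholly inside the gene the differences from ordinary feed were smaller for high fat (0.30, exact p = 0.6) and metformin (0.40, exact p = 0.114), and reads scaled to library size gave 0.87 for resveratrol (exact p = 0.0857). Reads scaled to library size are mostly those of NONMMUT110083.1, so that setting is close to a second test of this transcript. Resveratrol against high fat, 0.00, turned to -0.10 with MSTRG.25288.3 included, -0.22 with median-ratio scaling and -0.35 with reads scaled to library size. Resveratrol against metformin, -0.23, turned to 0.23 with members wholly inside the gene. Leaving out 1 library gave 0.55 to 0.96 for high fat against ordinary feed, 0.55 to 0.96 for resveratrol against ordinary feed, 0.78 to 1.19 for metformin against ordinary feed, -0.10 to 0.10 for resveratrol against high fat, 0.04 to 0.40 for metformin against high fat and -0.40 to -0.04 for resveratrol against metformin. Without ordinary-feed library 4 the first 2 reached an exact p of 0.0286, again not adjusted over comparisons.

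Of single features, uncalled changes near 0 turned sign. Without 1 library, Hnf4aos ranged from -0.17 to 0.25 (high fat against ordinary feed), -0.0718 to 0.52 (metformin against high fat), -0.0219 to 0.57 (metformin against ordinary feed) and -0.0292 to 0.56 (resveratrol against metformin). NONMMUT041006.2 ranged from -0.32 to 0.16 (high fat against ordinary feed; 0.0736 with median-ratio scaling and without high fat library 4). NONMMUT110083.1 ranged from -0.00577 to 0.20 (metformin against high fat) and NONMMUT110086.1 from -0.0460 to 0.17 (resveratrol against metformin). The causes were not tested.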
